A study of Mus musculus with 16 samples.

Results

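The nuclear-encoded subunits of the mitochondrial respiratory chain were described in 16 mouse mammary tumours, 4 in each of 4 treatment groups. They were taken as every gene whose symbol begins with Nduf, Uqcr, Atp5, Cox4, Cox5, Cox6, Cox7 or Cox8, together with Sdha, Sdhb, Sdhc and Sdhd, leaving out symbols that contain -ps. The rule uses names only, no measured value, and it finds 96 of the 55146 genes listed. The tumours came from 12-week-old MMTV-PyMT mice, in which the mouse mammary tumour virus promoter drives the polyoma middle T antigen in mammary epithelium, and were placed in mammary fat pad 4 of FVB mice. The recipients then received vehicle, 5 mg/kg of an antibody against PD-L1 2 times a week, 20 mg/kg of sonidegib daily, or both drugs, for 28 days. PD-L1 is a ligand that restrains T cells, and sonidegib inhibits Smoothened in the Hedgehog pathway. All 4 groups carry the transgene-derived tumour. The series asks which genes differ between the treatment groups, and the comparisons below follow that question for the respiratory chain.

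The respiratory chain sits in the inner mitochondrial membrane. Complex I and complex II take electrons from NADH and succinate, complex III passes them to cytochrome c, complex IV reduces oxygen, and complex V, the ATP synthase, makes ATP from the proton gradient. A small set of core subunits is encoded by the mitochondrial genome, and nuclear genes supply the others. The names used here cover most of these nuclear genes and several assembly factors of complex I, but not, for example, Cyc1 of complex III. The transcription factors NRF1, the ETS protein GABP and YY1 are known to bind promoters of many of these nuclear genes.

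The depth was estimated at 34.8 to 58.9 M fragments per library (M, mega) from the smeared steps between low values, so it is approximate. FPKM is the fragment count divided by transcript length in kilobases and by the M of mapped fragments. All 12 mammary epithelial markers reached at least 1 FPKM in at least 4 libraries, and their summed level was 643 to 2511 FPKM over the 16 libraries, so epithelial transcripts were present in every tumour. Vehicle replicate 3 stood apart: the median log2 deviation of all genes in it was -0.764, and it listed 11361 genes at 1 FPKM or more against 13107 to 14784 elsewhere. Combination replicates 2 and 4 had the highest summed level of the 13 mitochondrially encoded subunits, 41949 and 38524 FPKM against 3552 to 18642 in the other 14 libraries. The libraries were numbered through the groups in order, so library order and treatment cannot be told apart. The tumours are bulk samples, in which fewer cells of a type and less RNA per cell cannot be told apart.

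Of the 96 genes, 75 had a promoter in the RefSeq table for GRCm38.p6, with 80 promoters in all, each covering 250 bases before to 50 after the start site. The NRF1 motif, GCGCA and GCGC with any base between them, was searched on both strands and lay in 25% of these promoters against 4.6% of all 32851 promoters of the same length. The ETS motif CCGGAAG lay in 23.8% against 8.86%, and the YY1 motif AAGATGGC in 12.5% against 2.75%, again on both strands. These motifs were counted separately, and none contains another. A match is a run of letters and no measured binding. The 4 windows below are shown because they place such motifs, or none, beside members that did and did not pass the test described below, and they were chosen with those calls known. Each gives the 250 bases before the start site, 5′ to 3′, and overlaps no annotated exon. Any searched motif is in capitals. The 50 bases after the start, which the shares include, are not printed.
Ndufaf4 (chr4:24897833-24898082, plus strand): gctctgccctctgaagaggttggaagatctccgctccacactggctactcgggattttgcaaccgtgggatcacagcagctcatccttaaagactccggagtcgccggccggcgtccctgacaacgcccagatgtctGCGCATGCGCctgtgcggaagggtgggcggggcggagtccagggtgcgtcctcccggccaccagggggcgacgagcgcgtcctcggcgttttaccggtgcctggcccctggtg
Cox7b (chrX:106015450-106015699, plus strand): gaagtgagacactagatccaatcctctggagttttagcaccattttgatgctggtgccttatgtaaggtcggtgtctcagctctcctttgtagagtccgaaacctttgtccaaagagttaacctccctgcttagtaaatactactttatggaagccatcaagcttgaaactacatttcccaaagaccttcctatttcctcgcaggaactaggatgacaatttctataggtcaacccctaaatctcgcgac
Ndufaf1 (chr2:119662835-119663084, minus strand): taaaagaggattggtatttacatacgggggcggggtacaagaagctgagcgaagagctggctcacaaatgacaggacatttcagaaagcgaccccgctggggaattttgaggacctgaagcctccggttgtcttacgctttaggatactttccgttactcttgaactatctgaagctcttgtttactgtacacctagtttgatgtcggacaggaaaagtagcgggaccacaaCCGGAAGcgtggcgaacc
Ndufb6 (chr4:40279422-40279671, minus strand): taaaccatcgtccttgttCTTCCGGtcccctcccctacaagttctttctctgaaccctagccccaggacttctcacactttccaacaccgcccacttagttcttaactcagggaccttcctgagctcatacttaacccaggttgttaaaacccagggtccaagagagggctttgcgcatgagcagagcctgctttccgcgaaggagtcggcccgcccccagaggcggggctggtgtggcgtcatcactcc
The capitals mark the NRF1 motif of Ndufaf4, whose first base is at -113 from the start, and the ETS motif of Ndufaf1 at -18. In Ndufb6 they mark the ETS motif read on the other strand, at -232, and the Cox7b window holds none of the motifs. Ndufaf4 and Cox7b were among the genes called higher with both drugs, and Ndufaf1 and Ndufb6 were not. Among the genes with a promoter, the NRF1 motif was in 4 of 19 called and 15 of 55 tested but not called, the ETS motif in 4 of 19 and 15 of 55, and the YY1 motif in 2 of 19 and 8 of 55.

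These genes are among the more abundant messages of the tumours. The median of their mean levels was 61.5 FPKM over the 91 members that passed the filter of at least 1 FPKM in at least 4 libraries, against 6.49 FPKM over all 15105 genes tested. Complex V was the most abundant group by median (148 FPKM over 17 genes) and the assembly factors of complex I the least (5.41 FPKM over 8). The most abundant member was Atp5h, subunit d of the peripheral stalk of ATP synthase, at 361 FPKM, which ranged from 83.2 to 616 FPKM between libraries. Atp5h has 4 near-identical copies in the annotation, so its reads may have been split between them. Elsewhere the highest means were those of Cox8a in complex IV (252 FPKM), Uqcr11 in complex III (182), Ndufb9 among the accessory subunits of complex I (132), Sdhd in complex II (63.2), Ndufs8 among the core subunits of complex I (53.9) and Ndufaf8 among its assembly factors (27.1). The lowest means in the groups were those of Atp5j (87.9 FPKM), Sdhb (39.4), Uqcrc1 (34.6), Ndufs3 (17.6), Ndufaf6 (2.89), Ndufs6b (0.00879) and Cox8c (0.00569). Members that did not pass the filter were Cox4i2, Cox7b2, Cox8c, Ndufa11b and Ndufs6b, and Cox4i1 was not analysed here. In all, 27 members have a copy at least 95% identical over at least 200 bp, 28 overlap an exon of another gene on the opposite strand and 4 on the same strand, and whether the counting used strand is not stated. Their values are uncertain to that extent, including the values of 10 members with a copy and 9 with an opposite-strand overlap among those called below. The copy counted for Atp5md is named Usmg5, an earlier name of that gene, so both counts of copies may include the gene itself.

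The summed level of the 96 members was 5640 ± 2358 FPKM in the vehicle tumours (SD, n = 4). It was 7275 ± 520 FPKM under anti-PD-L1, 8683 ± 1235 under sonidegib and 9580 ± 2628 under both drugs. Sums in the vehicle tumours ran from 2688 to 8141 FPKM and those in the combination tumours from 6409 to 12132, so the groups overlapped. Both extremes came from the libraries named above, the lowest from vehicle replicate 3 and the highest from combination replicates 4 and 2.

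With both drugs, 25 of the 91 members tested were higher than with vehicle and 0 were lower, by limma on log2(FPKM + 1) with Benjamini-Hochberg adjustment over all 15105 genes at 0.05. This was 27.5% of the members, against 10.3% of all genes called higher and 11.3% called in either direction. In the same fit, 0 members passed for a difference of any kind across the 4 groups, against 0.0199% of all genes. The 25 comprise 9 of 30 accessory subunits of complex I, 1 of 7 core subunits, 3 of 8 assembly factors, 0 of 4 subunits of complex II, 3 of 8 of complex III, 4 of 17 of complex IV and 5 of 17 of complex V. Ndufa4 and Ndufa4l2 are counted with complex IV, where the Ndufa4 protein is now placed. Median log2 differences were 0.86 for the accessory subunits, 0.57 for the core subunits, 0.66 for the assembly factors, 0.45 for complex II, 0.85 for complex III, 0.79 for complex IV and 0.72 for complex V. Over all 91 members the median was 0.78, against 0.26 over all genes, and single members ranged from -0.32 to 2.12. All 4 combination libraries lay above all 4 vehicle libraries in 10 members, against 3.12% of all genes, and below them in 0 members, against 1.27%.

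The direction of the lower members depends on the scaling. The difference was positive in 84 of 91 members as deposited, in 73 after quantile normalization and in 71 after median-of-ratios scaling, which moved the median over all genes from 0.26 to -0.03 and 0.01. The 25 called members stayed positive under both, at 0.59 or more. Of the members named below, Atp5a1, Cox6a1, Ndufs7, Sdhc and Uqcrfs1 moved from above to below 0 under both, Ndufa4l2 under quantile normalization only, and Atp5h and Cox5a under median-of-ratios scaling only. The count itself rested on single libraries. It was 0 without vehicle replicate 1, 2 or 3, or without combination replicate 2 or 4, settings in which 3 to 10 of the 15105 genes were called at all. Without vehicle replicate 4 it was 44 (48.4% of members, against 32.8% of all genes), and without combination replicate 1 it was 40 (44.0% against 28.0%). With the GC and length trends of each library removed it was also 0, against 0.114% of all genes. The 25 members then differed by 0.60 to 1.93 with adjusted p of 0.0573 to 0.205 by limma.

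**Figure D1:**
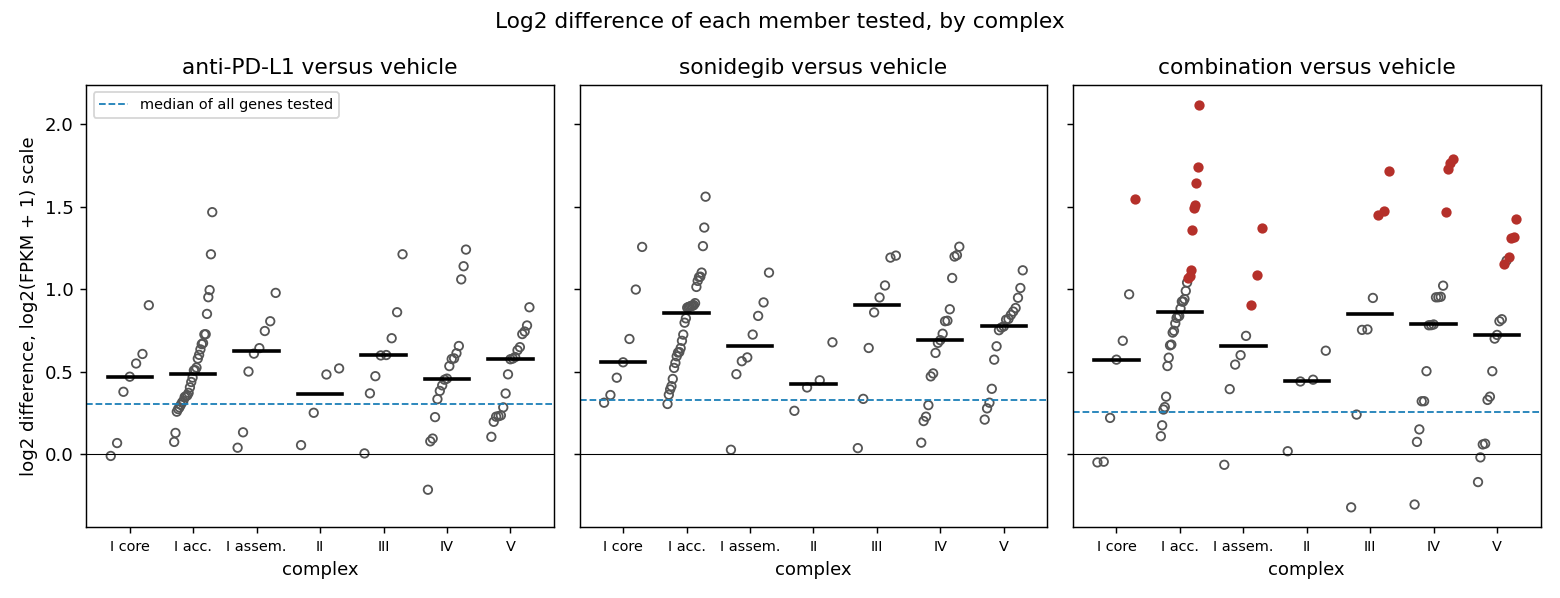
Log2 difference (log2(FPKM + 1) scale, vertical axis) of each tested member against vehicle, by complex, for anti-PD-L1, sonidegib and both drugs. Filled points passed the adjusted threshold, bars are complex medians and the dashed line is the median of all genes (0.30, 0.33 and 0.26); only the combination panel has filled points, 25 of them.

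Among the accessory subunits of complex I, which surround the catalytic core, Ndufa5, a subunit of the peripheral arm, had the largest difference of all members. Ndufa5 (ENSMUSG00000023089.12, chr6:24518666-24528013, minus strand, GRCm38) was at 15.4, 10.2, 5.78 and 29.6 FPKM in the vehicle tumours, 42.8, 40.9, 33.9 and 33.7 with anti-PD-L1, 49, 29.8, 43.9 and 40.7 with sonidegib, and 31.6, 92.9, 41.5 and 102 with both drugs, listed here and below in the order of replicates 1 to 4. Every treated tumour lay above the highest vehicle tumour, vehicle replicate 4, and combination replicates 2 and 4 lay far above the rest. Its mean was 15.2 ± 10.4 FPKM with vehicle and 67.1 ± 35.8 with both drugs, a log2 difference of 2.12 (SE 0.41, adjusted p = 0.0278).

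Ndufs4 is an accessory subunit of the NADH-oxidising module whose loss causes mitochondrial encephalopathy. Ndufs4 (ENSMUSG00000021764.8, chr13:114287795-114388258, minus strand) was at 19, 10.6, 4.80 and 32.7 FPKM in the vehicle tumours, 34.3, 31.6, 29.4 and 36.2 with anti-PD-L1, 41.8, 30.5, 34.9 and 41.3 with sonidegib, and 23.2, 70.7, 36.6 and 85.8 with both drugs. Combination replicate 1 fell within the vehicle range, while the other 3 combination tumours lay above it, for a log2 difference of 1.74 (SE 0.44, adjusted p = 0.0357). Ndufa2, which has a thioredoxin-like fold, was at 44.7, 37.4, 20.1 and 64.7 FPKM in the vehicle tumours, 79.5, 59.5, 74.3 and 69.2 with anti-PD-L1, 96.3, 77.6, 75.8 and 136 with sonidegib, and 75.4, 167, 86.4 and 204 with both drugs. No vehicle tumour reached any combination tumour, and the difference was 1.64 (SE 0.36, adjusted p = 0.0342). Ndufa1, a small membrane-spanning subunit needed for assembly, rose by 1.51 (SE 0.36, adjusted p = 0.0342), from 28.7 ± 12.5 to 81.8 ± 36.3 FPKM, again without overlap.

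Ndufb3, Ndufa6, Ndufb9, Ndufb5 and Ndufs5 were the other accessory subunits called, at 1.49, 1.36, 1.12, 1.08 and 1.07 with adjusted p of 0.0357, 0.0369, 0.0443, 0.0374 and 0.0408. Of these, Ndufa6 and Ndufb5 had no combination tumour within the vehicle range. Ndufb6, a membrane-arm subunit, also had no overlap, from 33, 28.6, 15.5 and 35.8 FPKM with vehicle to 40.3, 41.2, 37.2 and 45.5 with both drugs, but its difference of 0.58 (SE 0.26, adjusted p = 0.13) did not pass. The other 20 accessory subunits tested differed by 0.11 to 1.04 and did not pass. Ndufc1 was one of them, at 0.74 (SE 0.36, adjusted p = 0.153), as was Ndufc2 at 0.88 (SE 0.31, adjusted p = 0.0612) and Ndufa11 at 1.04 (SE 0.35, adjusted p = 0.0561).

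The 7 nuclear core subunits of complex I carry its flavin and iron-sulfur clusters and form the quinone site, and 1 of them passed. Ndufv2, an iron-sulfur subunit of the NADH-oxidising module, was at 26.4, 19.5, 7.98 and 32.8 FPKM in the vehicle tumours, 39.9, 33.7, 34.2 and 40.7 with anti-PD-L1, 55.7, 38.7, 34.4 and 68.7 with sonidegib, and 34.6, 76, 43.8 and 100.3 with both drugs. All combination tumours exceeded all vehicle tumours, for a difference of 1.55 (SE 0.38, adjusted p = 0.035). Its partner Ndufv1, which binds NADH and the flavin, was at 43.2, 33.6, 22.9 and 31.8 FPKM in the vehicle tumours, 33, 27.2, 30.04 and 38 with anti-PD-L1, 52, 41, 31.5 and 38.2 with sonidegib, and 35.5, 29.4, 31.9 and 27.9 with both drugs. The Ndufv1 groups overlapped fully and the difference was -0.05 (SE 0.24, adjusted p = 0.91). Between these 2 stood Ndufs8 at 0.97 (SE 0.33, adjusted p = 0.058), Ndufs3 at 0.69 (SE 0.30, adjusted p = 0.118), Ndufs1 at 0.57 (SE 0.27, adjusted p = 0.142) and Ndufs7 at 0.22 (SE 0.28, adjusted p = 0.605). Under both other scalings Ndufs7 also came out below 0, as Ndufv1 did throughout. The difference between Ndufv2 and the other core subunits was not tested.

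Of the assembly factors of complex I, 3 rose. Ndufaf2, a chaperone related to Ndufa12, was at 4.78, 2.08, 0.94 and 4.73 FPKM in the vehicle tumours, 6.75, 6.70, 4.86 and 7.51 with anti-PD-L1, 8.40, 5.70, 6.44 and 7.94 with sonidegib, and 7.39, 11.6, 5.88 and 11.3 with both drugs. All treated tumours lay above the vehicle range, and the combination differed by 1.37 (SE 0.31, adjusted p = 0.0342). Ndufaf4 (ENSMUSG00000028261.13, chr4:24898083-24905001, plus strand), whose promoter is shown above, rose from 1.48 ± 0.908 to 4.29 ± 1.98 FPKM, by 1.09 (SE 0.28, adjusted p = 0.0357). Ndufaf7, a mitochondrial methyltransferase, rose by 0.91 (SE 0.26, adjusted p = 0.0386). The differences of Ndufaf1 at 0.72, Ndufaf5 at 0.60 and Ndufaf6 at 0.54 did not pass, with adjusted p of 0.0573, 0.105 and 0.126. Ndufaf8, a partner of Ndufaf5, was at 27 ± 11.4 FPKM with vehicle and 26.4 ± 12.3 with both drugs.

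In complex II, succinate dehydrogenase, 0 of 4 subunits passed, and 0 were under an unadjusted p of 0.05 in the combination. The flavoprotein Sdha was at 33, 38.2, 17.8 and 42.7 FPKM in the vehicle tumours, 51.2, 47.4, 41.1 and 38.2 with anti-PD-L1, 48.4, 42.7, 43.7 and 38.1 with sonidegib, and 37.5, 42.9, 42.6 and 50.8 with both drugs. Its combination tumours lay between 37.5 and 50.8 FPKM, overlapping the vehicle tumours, for a difference of 0.45 (SE 0.25, adjusted p = 0.22). The iron-sulfur subunit Sdhb differed by 0.63 (SE 0.30, adjusted p = 0.151). The membrane anchors Sdhc and Sdhd differed by 0.02 (SE 0.24, adjusted p = 0.969) and 0.44 (SE 0.26, adjusted p = 0.239). Sdhc came out below 0 under both other scalings.

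Complex III had 3 called subunits and also the lowest difference of all members. Uqcrb, a small subunit next to the quinone site, was at 44.8, 27.8, 14.8 and 84.1 FPKM in the vehicle tumours, 113, 96.1, 67.8 and 66.3 with anti-PD-L1, 103, 68.8, 78.8 and 82.4 with sonidegib, and 71.1, 168, 84.1 and 202 with both drugs. Combination replicate 1 lay below vehicle replicate 4, combination replicate 3 was at the same level and the other 2 were at least 168 FPKM, for a difference of 1.72 (SE 0.43, adjusted p = 0.0357). Uqcrb has 3 near-identical copies in the annotation. Uqcr10 rose by 1.48 (SE 0.38, adjusted p = 0.0357) and Uqcrh, the hinge protein that helps bind cytochrome c, by 1.45 (SE 0.39, adjusted p = 0.0368). Uqcrc1, 1 of the core proteins, was at 55.6, 36.3, 21.8 and 34.2 FPKM in the vehicle tumours, 34.4, 29.2, 34.2 and 44.5 with anti-PD-L1, 30.4, 51.3, 30.2 and 35.4 with sonidegib, and 43.4, 25.6, 24 and 22.4 with both drugs. Its difference was -0.32 (SE 0.29, adjusted p = 0.455), with 3 of 4 combination tumours near the low end of the vehicle range. Its partner Uqcrc2 differed by 0.95 (SE 0.31, adjusted p = 0.0547), the Rieske iron-sulfur protein Uqcrfs1 by 0.24 (SE 0.25, adjusted p = 0.532) and Uqcr11 by 0.76 (SE 0.34, adjusted p = 0.125).

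In complex IV, cytochrome c oxidase, Ndufa4, Cox7b, Cox7c and Cox6c rose. Ndufa4 (ENSMUSG00000029632.7, chr6:11900292-11907497, minus strand) was at 94.8, 62.1, 25.9 and 158 FPKM in the vehicle tumours, 175, 149.5, 155 and 146 with anti-PD-L1, 164, 161, 171 and 183 with sonidegib, and 165, 383, 151 and 382 with both drugs. Combination replicates 2 and 4 were far above every other tumour, and replicate 3 lay within the vehicle range, with a difference of 1.79 (SE 0.43, adjusted p = 0.0342). Cox7b (ENSMUSG00000031231.4, chrX:106015700-106022450, plus strand), a small subunit needed for assembly of the complex, was at 42.6, 31.3, 11.4 and 66.4 FPKM in the vehicle tumours, 83, 76, 69.1 and 80.04 with anti-PD-L1, 88.7, 64, 67.2 and 81.1 with sonidegib, and 63.8, 166, 72 and 197 with both drugs. The anti-PD-L1 tumours were all above the vehicle range, and the combination differed from vehicle by 1.76 (SE 0.43, adjusted p = 0.0342). Cox7c (ENSMUSG00000017778.14, chr13:86044816-86046904, minus strand), another small membrane subunit, was at 194, 72.7, 44.3 and 203 FPKM in the vehicle tumours, 218, 193, 232 and 251 with anti-PD-L1, 227, 247, 208 and 317 with sonidegib, and 269.9, 539, 186 and 586 with both drugs. Vehicle replicates 1 and 4 lay close to the treated tumours and replicates 2 and 3 far below, for a difference of 1.73 (SE 0.45, adjusted p = 0.0357).

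Cox6c was at 181, 167, 58.9 and 181 FPKM in the vehicle tumours, 177, 187, 174 and 179.7 with anti-PD-L1, 264, 227, 203 and 308 with sonidegib, and 219.9, 571, 232 and 659 with both drugs. For Cox6c, 3 vehicle tumours and all anti-PD-L1 tumours lay between 167 and 187 FPKM, and all sonidegib and combination tumours lay above them. The difference from vehicle was 1.47 (SE 0.40, adjusted p = 0.0369). Cox6c2, a near-identical copy, was at 1.34 ± 0.636 FPKM with both drugs, and reads may have been divided between the 2 genes. Cox5a and Cox5b, subunits on the matrix side, differed by 0.32 (SE 0.31, adjusted p = 0.482) and 0.78 (SE 0.32, adjusted p = 0.0972) and did not pass.

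Tissue-restricted isoforms of complex IV stood well below their common partners. Cox6a1, the form found in most tissues, was at 191 ± 75.3 FPKM with vehicle and 192 ± 50.3 with both drugs, a difference of 0.07 (SE 0.34, adjusted p = 0.9). Its muscle counterpart Cox6a2 was at 3.52, 0.144, 0.229 and 0.577 FPKM in the vehicle tumours, 1.23, 15.6, 0.544 and 0.0758 with anti-PD-L1, 1.68, 2.86, 0.599 and 0.378 with sonidegib, and 0.121, 0.47, 0.709 and 7.65 with both drugs. Its highest values came from 1 or 2 tumours of each group, and the groups overlapped. The 6 libraries with the highest Cox6a2 were the 6 with the highest summed level of 17 skeletal muscle markers, led by anti-PD-L1 replicate 2 with 929 FPKM of markers and combination replicate 4 with 503. The summed markers ranged from 12.2 to 298 FPKM in vehicle tumours, 5.28 to 929 under anti-PD-L1, 18.8 to 174 under sonidegib and 8.23 to 503 under both drugs. For Cox8b, expressed in muscle and brown fat, 3 of its 4 highest libraries were among the 4 highest in these markers, and for the muscle isoform Cox7a1 2 of 4 were. The part of muscle tissue in these values was not tested otherwise.

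Cox8b was at 6.96, 6.66, 0.828 and 0.395 FPKM in the vehicle tumours, 4.20, 11.1, 1.24 and 1.05 with anti-PD-L1, 8.47, 4.17, 2.17 and 0.748 with sonidegib, and 3.27, 3.72, 3.54 and 13.9 with both drugs, with a difference of 0.78 (SE 0.75, adjusted p = 0.491). Its common partner Cox8a differed by 0.50 (SE 0.31, adjusted p = 0.265). Cox7a1 was at 4.98 ± 3.45 FPKM with vehicle and 9.22 ± 1.69 with both drugs, a difference of 0.95 (SE 0.33, adjusted p = 0.0596). Its common partner Cox7a2 differed by 1.02 (SE 0.36, adjusted p = 0.0645), and Cox7a2l, which links complexes into supercomplexes, by 0.95 (SE 0.34, adjusted p = 0.0673). Cox6b1 was at 269.5 ± 62.2 FPKM with both drugs and the testis isoform Cox6b2 at 0.409 ± 0.286, with differences from vehicle of 0.95 (SE 0.37, adjusted p = 0.0842) and -0.31 (SE 0.28, adjusted p = 0.464). Ndufa4l2, a hypoxia-induced relative of Ndufa4, was at 1.36, 0.691, 0.238 and 1.48 FPKM in the vehicle tumours, 1.91, 1.33, 2.15 and 1.01 with anti-PD-L1, 2.28, 1.18, 2.19 and 0.985 with sonidegib, and 1.60, 1.34, 0.833 and 0.663 with both drugs. Its levels overlapped between all groups, and the combination differed from vehicle by 0.15 (SE 0.25, adjusted p = 0.701). Cox4i2, the lung and low-oxygen isoform, stayed between 0.0734 and 0.586 FPKM, and the testis isoforms Cox7b2 and Cox8c were listed at 0 in 13 and 15 of the 16 libraries.

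In complex V, 5 small or stalk subunits rose. Atp5j, coupling factor 6 of the peripheral stalk, was at 52.2, 43.4, 19.4 and 80.8 FPKM in the vehicle tumours, 91.7, 93.5, 75.1 and 68.7 with anti-PD-L1, 107, 73.3, 83.6 and 93.5 with sonidegib, and 68.7, 166, 84.2 and 205 with both drugs. In the combination, 3 tumours lay above all vehicle tumours, and replicate 1 lay below vehicle replicate 4. Atp5j differed by 1.42 (SE 0.39, adjusted p = 0.0369). Atp5mpl and Atp5l, small subunits of the membrane part, rose by 1.32 (SE 0.38, adjusted p = 0.0397) and 1.31 (SE 0.37, adjusted p = 0.0384). Atp5f1, subunit b of the stalk, rose by 1.20 (SE 0.38, adjusted p = 0.0481) and the small membrane subunit Atp5md by 1.16 (SE 0.36, adjusted p = 0.0473). Atp5l has 9 near-identical copies and Atp5f1 has 1.

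In the catalytic head of ATP synthase, the alpha and beta subunits did not pass. Atp5b, the beta subunit that holds the catalytic sites, was at 387, 292, 195 and 312 FPKM in the vehicle tumours, 300.3, 272, 314 and 359 with anti-PD-L1, 312, 419, 274 and 342 with sonidegib, and 338, 244, 210.0 and 247 with both drugs. The combination tumours lay inside the vehicle range, at a difference of -0.17 (SE 0.29, adjusted p = 0.708). The alpha subunit Atp5a1 differed by 0.06 (SE 0.27, adjusted p = 0.901) and came out below 0 under both other scalings. The gamma subunit Atp5c1, the rotor shaft, differed by 0.82 (SE 0.32, adjusted p = 0.0862), and Atp5g2, 1 of the genes for the rotor ring, by 0.72 (SE 0.33, adjusted p = 0.136).

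**Figure D2:**
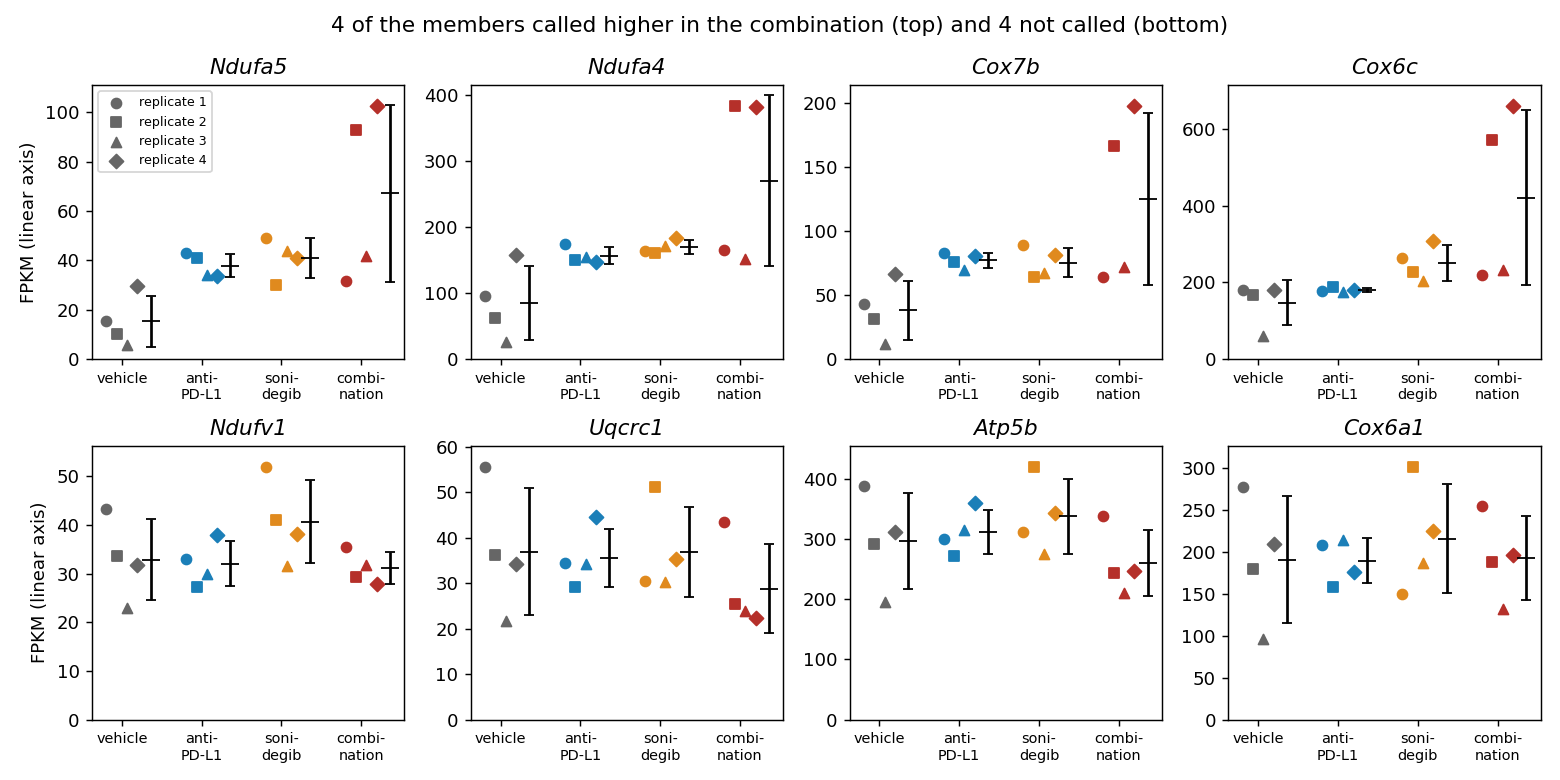
FPKM of 8 members in each library (linear axes from 0; marker shape gives the replicate, bars the mean ± SD, n = 4). Ndufa5, Ndufa4, Cox7b and Cox6c passed in the combination and are highest in combination replicates 2 and 4; Ndufv1, Uqcrc1, Atp5b and Cox6a1 did not pass and overlap between all groups.

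The 25 called members were then read library by library. Combination replicates 2 and 4 lay above all vehicle tumours in 25 of 25, replicate 3 in 18 and replicate 1 in 16. The highest pair among the 16 libraries was combination replicates 2 and 4 in 23 of the 25, and in 38 of all 91 members tested. Vehicle replicate 3 was the lowest of the 16 in 25 of 25, and in 87 of 91. The highest vehicle tumour was replicate 4 in 16, replicate 1 in 8 and replicate 2 in 1.

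With combination replicates 2 and 4 left out together, an alternative added after seeing the data, 0 members were called. The 25 then differed from vehicle by 0.56 to 1.41, with adjusted p of 0.585 to 0.588 by limma, and 12 of the 91 members (13.2%) were under an unadjusted p of 0.05, against 6.68% of all genes. Without vehicle replicate 3 the median over the members was 0.47 and that over all genes 0.07.

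**Figure D3:**
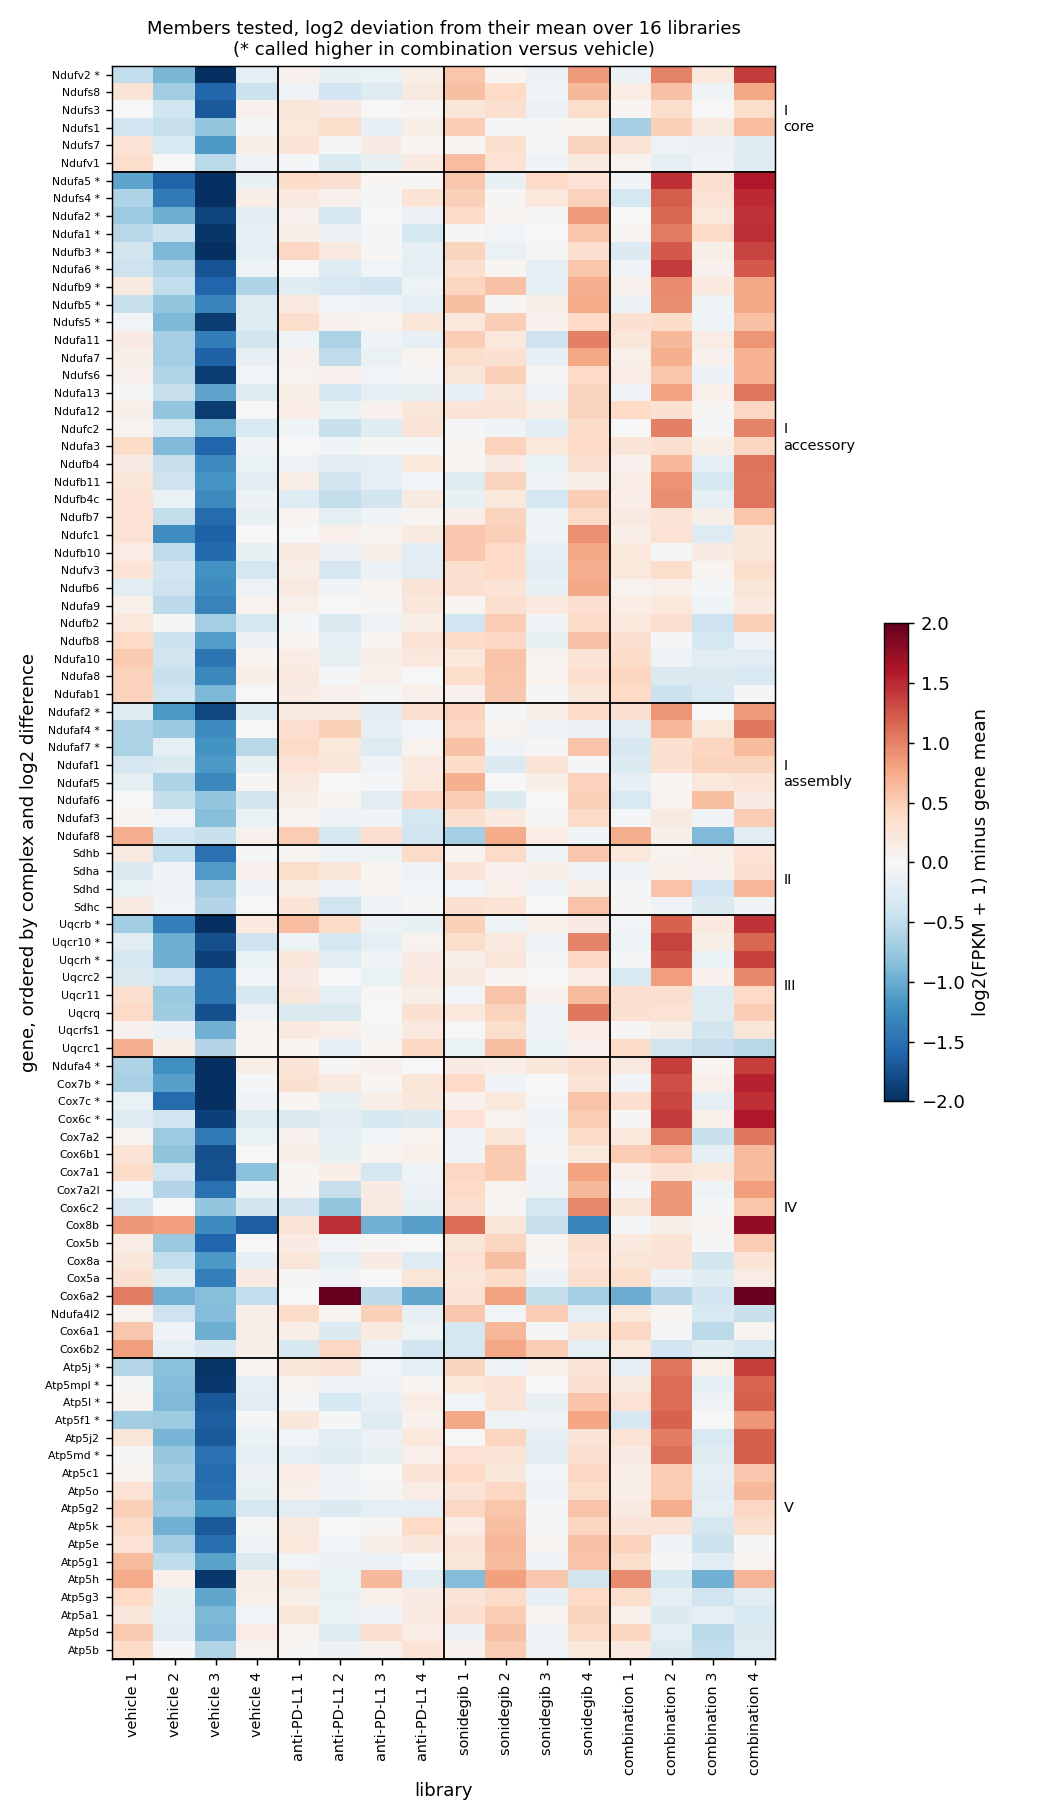
Log2(FPKM + 1) of 90 of the 91 tested members (rows, grouped by complex and ordered by their difference) in the 16 libraries (columns), as deviation from each gene's mean; the colour scale ends at -2 and 2. Vehicle replicate 3 is blue in nearly every row, and combination replicates 2 and 4 are reddest in the rows marked with an asterisk, the 25 called members.

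Each drug alone was compared with the same vehicle tumours, so these comparisons share their controls with the combination. With sonidegib, 0 of the 91 members passed in limma, as did 0.0% of all genes, and 56 members were under an unadjusted p of 0.05, against 27.3% of all genes. The median difference was 0.73, against 0.33 over all genes. All 91 differences were positive as deposited, 78 after quantile normalization and 73 after median-of-ratios scaling. All 4 sonidegib tumours lay above all 4 vehicle tumours in 17 members, against 6.0% of all genes. The members with the lowest p were Ndufa5 at 1.56 (SE 0.41, adjusted p = 0.127), Ndufaf2 at 1.10 (SE 0.31, adjusted p = 0.127), Ndufb5 at 1.07 (SE 0.30, adjusted p = 0.127), Ndufaf7 at 0.92 (SE 0.26, adjusted p = 0.127) and Ndufa2 at 1.26 (SE 0.36, adjusted p = 0.127). For Ndufb5, a membrane-arm subunit, the sonidegib tumours were at 79.3, 52.7, 56.4 and 87.2 FPKM and the vehicle tumours at 37.7, 29.5, 20.3 and 43.3. Without vehicle replicate 4 the count of members called was 37 (40.7%), against 26.3% of all genes. Without vehicle replicate 3 the median over the members was 0.46, against 0.15 over all genes, and 0 members were called.

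With anti-PD-L1, 0 of 91 members passed in limma against 0.0% of all genes, and 20 were under an unadjusted p of 0.05, against 24.6% of all genes. The median was 0.51, against 0.30 over all genes, and 89 of 91 differences were positive as deposited, 78 after quantile normalization and 58 after median-of-ratios scaling. No overlap was seen in 8 members, against 3.39% of all genes. The lowest p values were those of Ndufa5 at 1.47 (SE 0.41, adjusted p = 0.158), Ndufaf2 at 0.98 (SE 0.31, adjusted p = 0.158), Ndufs5 at 0.95 (SE 0.31, adjusted p = 0.158), Cox7b at 1.24 (SE 0.43, adjusted p = 0.158) and Ndufaf7 at 0.75 (SE 0.26, adjusted p = 0.158). Ndufs5, a subunit of the membrane arm, was at 27.9, 15.2, 7.10 and 24.4 FPKM in the vehicle tumours, 37.3, 30.8, 30.1 and 34.5 with anti-PD-L1, 34, 41.5, 31.1 and 38.9 with sonidegib, and 36.2, 38, 27.3 and 44.1 with both drugs. All single-drug tumours lay above the vehicle range of Ndufs5, as did all combination tumours but replicate 3. Without vehicle replicate 4 the count of members called was 17 (18.7%), below the 26.0% of all genes called there. Without vehicle replicate 3 the median over the members was 0.20, with 72 of 91 differences positive, against a median of 0.12 over all genes.

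Against the single drugs, the combination gave 0 calls among the members. Against anti-PD-L1, 0.00662% of all genes passed in limma, 6 members (6.59%) were under an unadjusted p of 0.05 against 5.78% of all genes, and the median was 0.26 against -0.05 over all genes. That median was 0.13 without combination replicate 4 and -0.02 without combination replicates 2 and 4 together. The lowest p values were those of Cox6c at 1.05 (SE 0.40, adjusted p = 0.812), Cox6c2 at 0.69 (SE 0.28, adjusted p = 0.813), Ndufa1 at 0.84 (SE 0.36, adjusted p = 0.824), Ndufb9 at 0.75 (SE 0.34, adjusted p = 0.837) and Ndufa2 at 0.79 (SE 0.36, adjusted p = 0.837). In 6 members, Cox6c, Ndufa11, Ndufa3, Ndufa7, Ndufb7 and Ndufb9, all combination tumours lay above all anti-PD-L1 tumours, against 1.36% of all genes. Ndufb9, a subunit of the membrane arm, was at 103, 98.4, 93.4 and 113 FPKM with anti-PD-L1 and 128, 235, 139 and 205 with both drugs.

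Against sonidegib alone, 0 members and 0.0% of all genes passed in limma, 0 members were under an unadjusted p of 0.05 against 4.28% of all genes, and the median was 0.01 against -0.07. Among the lowest p values there were those of Atp5a1 at -0.51 (SE 0.27, adjusted p = 0.959), Ndufa1 at 0.61 (SE 0.36, adjusted p = 0.959), Sdhc at -0.39 (SE 0.24, adjusted p = 0.959) and Ndufc2 at 0.49 (SE 0.31, adjusted p = 0.959). No member had all combination tumours above all sonidegib tumours, against 0.483% of all genes, or below them, against 2.44%. Between the single drugs, 0 members and 0.0% of all genes passed in limma, with 0 members under an unadjusted p of 0.05 against 2.09% of all genes, and a median of 0.19 for sonidegib minus anti-PD-L1. The 5 lowest p values were those of Cox6c2, Ndufb9, Atp5g2, Ndufa11 and Ndufs8, at 0.52, 0.64, 0.59, 0.57 and 0.53, each with an adjusted p of 1. Atp5g2, Cox6c and Ndufa3 had no overlap between the single drugs, against 2.24% of all genes.

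The interaction of the 2 drugs, the departure of the combination from the sum of both single-drug differences on the log2 scale, passed in limma for 0 members and 0.00662% of all genes, with 5 members (5.49%) under an unadjusted p of 0.05 against 9.88% of all genes. It was negative in 84 of 91 members as deposited, in 72 after quantile normalization and in 49 after median-of-ratios scaling, with a median of -0.50 against -0.35 over all genes as deposited. The members' median was -0.22 without vehicle replicate 3 and -0.02 after median-of-ratios scaling. The lowest p values were those of Ndufaf5, Ndufa4l2, Ndufb6, Ndufs5 and Ndufc1, at -0.85, -0.77, -0.81, -0.96 and -1.09, each with an adjusted p of 0.485. Ndufc1, a small accessory subunit, was at 72.6, 24.6, 18.7 and 59.5 FPKM in the vehicle tumours, 59.5, 63.8, 61.6 and 67.7 with anti-PD-L1, 86.4, 82.8, 56.2 and 113 with sonidegib, and 65.5, 72.6, 49.3 and 69.7 with both drugs. Its sonidegib tumours included the highest value and its vehicle tumours the lowest, and the combination tumours overlapped both groups. For a difference of any kind across the 4 groups, 0 members passed in limma against 0.0199% of all genes, and 38 (41.8%) were under an unadjusted p of 0.05 against 23.7% of all genes. The lowest p values in that test were those of Ndufa5, Ndufaf2, Ndufa2, Ndufv2 and Ndufa4, each with an adjusted p of 0.162. Without vehicle replicate 4 the count across the groups was 22 (24.2%, against 22% of all genes), and without combination replicate 1 it was 18 (19.8% against 12.1%).

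The members called in the combination had shorter transcripts of lower GC content than the members that were not. GC content and length were available for 94 of the 96 members, from GENCODE release M21 on GRCm38. The median GC content was 47.8% in the 25 called and 52.4% in the others tested, against 50.1% over all genes. Median transcript lengths were 599, 838 and 2293 bp in the same order. Of the 17 members under 50% GC and shorter than 1000 bp, 12 were called (70.6%), against 26.2% of the 1315 genes of that class. Of 18 longer members under 50% GC, 6 were called (33.3%, against 16.1% of genes). Of 42 shorter members at or above 50% GC, 7 were called (16.7%, against 7.47%), and of 12 longer ones 0 were (0.0%, against 1.64%). Ndufv2 and Ndufv1, a pair picked with their calls known, had 44.4% and 56.2% GC. Whether this bears on their different results was not tested.

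Across the 89 tested members with a value, Spearman's rho of the combination difference was -0.41 with GC content and -0.35 with length. Over 14893 genes it was -0.56 and -0.12. These points share the same 8 libraries and are no replicates. GC dependence itself differed between libraries: the slope of log2 deviation on the GC fraction was 4.72, 3.44, 3.72 and -0.53 in the vehicle tumours and 2.20, -3.34, -2.92 and -4.03 in the combination tumours. With only the GC trend of each library removed, 20 members were called (22.5%, against 4.25% of all genes), 14 of them among the 25. With length removed too, 0 were, against 0.114% of all genes, so calls were nearly lost over all genes as well. Whether GC content or length has a part in the calls beyond these fits was not tested.

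**Figure D4:**
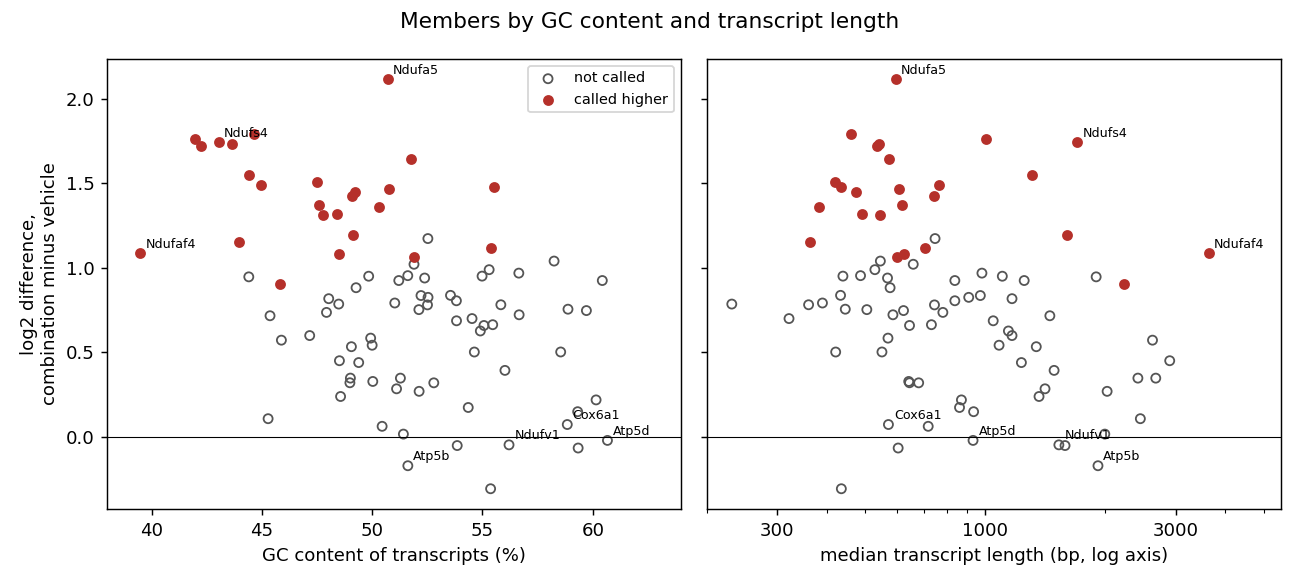
Log2 difference of combination minus vehicle for each tested member (vertical axis) against the GC content of its transcripts in percent (left) and its median transcript length in bp on a log axis (right). The filled points, the 25 called members, have a lower median GC content (47.8% against 52.4%) and a shorter median length (599 against 838 bp), and 6 of the 25 are 1000 bp or longer.

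Related gene lists moved in the combination as follows, with 0 genes of any list passing in the other pairwise comparisons by limma. Over all genes, 10.3% were called higher and 0.953% lower. Of the 13 mitochondrially encoded subunits, 8 rose and 0 fell, with a median of 1.60. Their summed level was 12620 and 14152 FPKM in combination replicates 1 and 3, below the 18642 FPKM of vehicle replicate 4. mt-Co2 was at 709 ± 814 FPKM with vehicle and 2443 ± 1343 with both drugs, a difference of 2.23 (SE 0.60, adjusted p = 0.0357), and mt-Atp8 differed by 2.48 (SE 0.60, adjusted p = 0.0342). Of 11 respiratory chain genes outside the name rule 2 rose: Cycs, the electron carrier cytochrome c, by 1.41 (SE 0.33, adjusted p = 0.0342), and Atpif1, the inhibitor of ATP synthase, by 1.33 (SE 0.37, adjusted p = 0.0369). Cyc1, the cytochrome c1 of complex III, was at -0.14 and did not pass.

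The next 3 lists had shares of genes called higher near that of all genes. Of 33 assembly factors of complexes II to V, 4 rose (Sdhaf4, Cox16, Cox17 and Coa6, at 1.57, 1.14, 1.06 and 0.87), with a median of 0.48. Of 8 further assembly genes of complex I, Tmem126b rose, by 1.13 (SE 0.31, adjusted p = 0.0369). Among 12 regulators of mitochondrial biogenesis, Tfb2m, a mitochondrial transcription factor, rose by 1.16 (SE 0.32, adjusted p = 0.0369) and the coactivator Pprc1 fell, at -0.73 (SE 0.23, adjusted p = 0.0456). Ppargc1a, the best known coactivator of the set, was at 0.598 ± 0.35 FPKM with vehicle and 1.12 ± 0.62 with both drugs and did not pass.

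Of 17 enzymes of the citric acid cycle, which feeds the chain, Sucla2, Dld and Fh1 rose, at 1.47, 1.29 and 1.09. Of 24 genes of glycolysis and the hypoxia response, 0 rose and 3 fell, with a list median of -0.80. These were the glucose transporter Slc2a1, at -2.04 (SE 0.50, adjusted p = 0.0346), Ak4 at -1.55 (SE 0.40, adjusted p = 0.0357) and the carbonic anhydrase Car9 at -0.98 (SE 0.30, adjusted p = 0.0456). The summed level of the 24 genes was 2870 to 7237 FPKM with vehicle and 1946 to 6092 with both drugs, so the groups overlapped. Ribosomal protein genes rose in 27 of 84 cases for the cytosolic set (median 1.05) and in 24 of 78 for the mitochondrial set (median 0.55). Their median transcript lengths were 772.5 and 1226 bp, and their median GC contents 51.7% and 50.1%.

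Some markers of other cells were also called in the same contrast. Of the fibroblast and matrix markers 6 of 12 rose, and their sum was 176 to 208 FPKM with vehicle and 220 to 537 with both drugs. Of the macrophage and monocyte markers 4 of 14 rose, with sums of 229 to 390 and 382 to 592 FPKM. Of the 10 T cell markers 4 passed the filter and 3 rose, with sums of 2.45 to 5.33 and 3.94 to 27.1 FPKM, combination replicates 2, 3 and 4 being the highest. Adipocyte markers summed to 2.68 to 21.7 and 10.7 to 158 FPKM, with 1 of 4 tested genes, Fabp4, called. The 158 FPKM came from combination replicate 1, while replicates 2 to 4 were at 10.7, 18.4 and 14.8 FPKM, within the vehicle range. The mammary epithelial markers (0 of 12 called, median -0.22) and the endothelial markers (0 of 6) gave no call. No defining marker of the fibroblast, macrophage or T cell lists was below 0.1 FPKM in every library of a group. Their part in the respiratory chain differences was not tested.

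**Figure D5:**
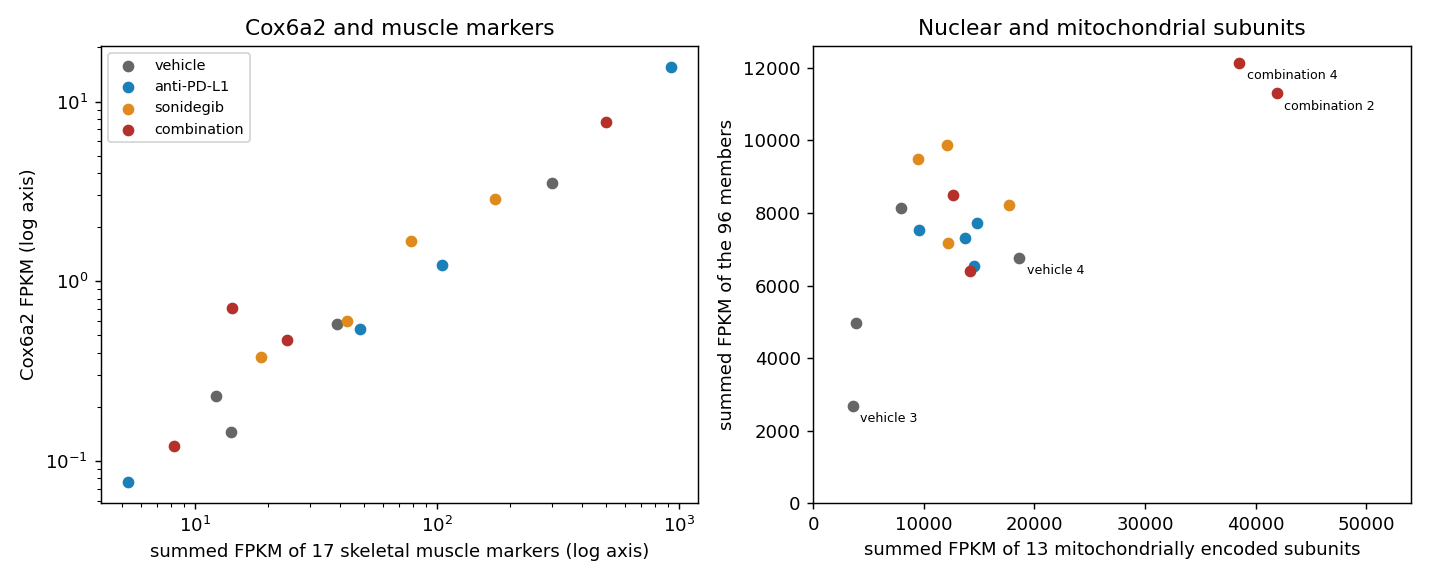
Left, Cox6a2 FPKM against the summed FPKM of 17 skeletal muscle markers (both axes log) in the 16 libraries; the 6 highest libraries are the same on both axes. Right, summed FPKM of the 96 members against that of the 13 mitochondrially encoded subunits (linear axes); combination replicates 2 and 4 stand apart at 41949 and 38524 FPKM of mitochondrial transcripts, and vehicle replicate 3 is lowest.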

How the data were processed

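The deposited table gives FPKM, made by the authors from RNA sequencing, with a column for each of the 16 tumours and a row for each of 55146 genes. The submitters' processing notes name TopHat, Cufflinks, GRCm38.p6 and mm10, while their versions and the annotation were not given in the sources used here. Per the labels' protocols, stranded libraries were made after removal of ribosomal RNA. Another label names polyadenylated RNA, and this conflict was not resolved. FPKM is relative to all mapped fragments, so very abundant transcripts lower the others, and Cufflinks shares out fragments of overlapping genes by estimation. Columns were assigned to tumours through the S numbers of the descriptions, and all 16 were used.

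Of the genes, 15105 reached at least 1 FPKM in 4 or more libraries and were tested on the log2(FPKM + 1) scale without further scaling, which understates changes of genes near 1 FPKM. Limma 3.58.1 (R 4.3.3) estimated a mean for each of the 4 groups from all 16 libraries, with trend and robust variance options. Tests were two-sided, and Benjamini-Hochberg adjustment was made in each comparison over all genes, with a threshold of 0.05. The script was tested on simulated data. The members and lists were chosen with earlier results of these data known. Members named in the text are, per comparison, the 5 largest rises among those called or else the 5 lowest p, the tissue-restricted isoforms and core subunits, and the highest and lowest means of each complex; other called members are named with their difference. 1 member that this rule names is not reported here, though it stays in the fits and counts. The plan provided for counts or FPKM, and whole reads could not be recovered from the FPKM. No label says whether the tumours had separate donors or litters, so the p-values reflect only the spread seen here, which may be technical in part. No pairing of libraries by replicate number was seen, and the numbers were not used as a block in the reported fit.

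Coordinates, GC content and transcript length came from GENCODE release M21 (GRCm38), where 53992 identifiers matched with their version and 54547 without it, among them 94 of the 96 members. Copies were found with BLAST 2.17.0. Promoters came from RefSeq (GRCm38.p6). The alternatives were quantile normalization, median-of-ratios scaling, 0.1 as the pseudocount, no filter, no trend or robust estimation, a replicate block, removal of GC trends or of GC and length trends (splines with 4 degrees of freedom), and leaving out each library. Leaving out combination replicates 2 and 4 together was added after seeing the data. Python 3.11.15 and matplotlib 3.10.9 were used for the remaining steps.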

Additional observations from a re-analysis of the deposited data

Results flagged for a closer look

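In 8 of 216 groups of 4 libraries, over the members named in the text and the 4 treatments, 1 library lay far from the other 3 on the log2(FPKM + 1) scale by Dixon's ratio, a rule by which chance flags about 1 in 20 groups. Of the 8, 3 were low values in combination replicate 3, all subunits with a GC content above 50%: Cox6b1 at 178 FPKM against 287 to 314 in the other combination tumours, Cox8a at 189 against 288 to 295, and Uqcr11 at 144 against 217 to 229. Most members share that GC content, as only 35 of the 89 tested with a value were under 50%. Vehicle replicate 3 was low for Cox6c, at 58.9 FPKM against 167 to 181, and for the complex II anchor Sdhd, at 38.6 against 56.4 to 58.7. In anti-PD-L1 replicate 2, the membrane-arm subunit Ndufa11 was low, at 72.5 FPKM against 100.7 to 106. Sonidegib replicate 4 was high for Ndufa1, at 66.6 FPKM against 43.3 to 46.1. Combination replicate 4 was high for the muscle and brown fat isoform Cox8b, at 13.9 FPKM against 3.27 to 3.72, and was also the second highest library in skeletal muscle markers, at 503 FPKM summed.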

How the results depend on the processing

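The count of 25 members higher in the combination than with vehicle was 31 after quantile normalization (23 shared), 34.1% against 17.4% of all genes. After median-of-ratios scaling it was 21 (23.1%, against 18.4% of all genes). It was 26 with 0.1 as the pseudocount (28.6% against 11.8%) and 26 without trend and robust estimation (28.6% against 9.4%). With GC trends removed the count was 20 (14 shared), 22.5% against 4.25%. It was 0 with no filter (38045 genes adjusted over in place of 15105; the lowest adjusted p among the 25 was 0.12), 0 with GC and length trends removed, and 0 without combination replicates 2 and 4 together, chosen after seeing the data. With GC and length trends removed, 53 members (59.6%, against 29.5% of all genes) were under an unadjusted p of 0.05, against 57 in the fit as reported. Leaving out 1 library gave 0 to 44 members for the combination, 0 to 37 for sonidegib, 0 to 17 for anti-PD-L1 and 0 to 22 for any difference across the groups, while all genes gave 3 to 4947, 0 to 3974, 0 to 3927 and 0 to 3321 calls in the same order. The replicate block called 27 members, including the 25. Same-numbered libraries correlated at -0.43 to 0.34 over 24 pairs, 4 of them over 0.1, and 0 of 16 libraries correlated best with their own number. No pairing by number was thus seen, though such correlations cannot exclude a shared donor. Over all genes, 1559 were called higher and 144 lower as deposited, 1326 and 1308 after quantile normalization, and 1539 and 1233 after median-of-ratios scaling. Gene counts were 633 with GC trends removed, 17 with GC and length trends removed, 8 with no filter and 1177 with the replicate block. The median member difference relative to all genes for sonidegib was 0.40 and moved to 0.69 with no filter. No result changed sign while called. Of the named members' differences under the alternatives, 2047 kept their side of the threshold, 256 lost it and 41 gained it. FPKM steps were smeared, so counting error per value is unknown, and 4 tumours per group limit every test.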
